A study of Mus musculus with 16 samples.

Results

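The genes described here encode the working parts of the lysosome, the acid compartment in which cells take apart proteins, glycans and lipids. They are 39 genes listed by symbol, and all 39 were found among the 54532 genes of the deposited count table. By role they are 10 proteases and peptidases, 9 hydrolases of glycans and lipids, 2 cofactors of lipid hydrolysis, 6 proteins of the lysosomal membrane, 3 transcription factors of the MiT/TFE family, and 3 V0 and 6 V1 subunits of the proton pump.

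The study used female C57BL/6 mice, an inbred laboratory strain, and sequenced total RNA of cells from gonadal white adipose tissue, a visceral fat depot. In the tested mice, maternal separation and early weaning (MSEW) took pups from the dam daily over postnatal days 2 to 16 and weaned them on day 17, and control pups stayed with the dam and were weaned on day 21. The 16 libraries make 6 groups: 3 MSEW and 3 control libraries of mature adipocytes after a high-fat diet, 4 MSEW and 4 control libraries of preadipocytes after a high-fat diet, and 1 MSEW and 1 control library of preadipocytes after a low-fat diet. Per the labels, collagenase-digested tissue was split into the mature and the stromal vascular fraction, and magnetic sorting then separated adipocyte lineage cells from others. The sources used here do not give the age of the mice at harvest, the length of the diets or the antibodies of the sort. Nothing in the labels ties each library to its own mouse, and every p-value below therefore reflects the scatter among these libraries alone, part or all of which may be technical.

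Libraries held 14182130 to 23368821 counts. Among the control preadipocytes of the high-fat diet, libraries 1 and 3 could hardly be told apart: their counts differed at 7.01% of genes, against 43.0 to 79.0% in the 17 other pairs within a group, so they were summed and counted as 1 sample in the fits, apart from alternatives that kept both. Ranges and medians of levels are over the libraries as deposited. The fraction labels fitted their markers, with 12 of 12 mature adipocyte markers higher and 12 of 12 progenitor markers lower in the mature fraction. Higher and lower here mean an adjusted p below 0.05 in the fraction comparison described below. Of all genes 26.9% were higher there and 32.9% lower. Markers of further cell types also differed by fraction: 9 of 10 endothelial markers were higher in mature adipocytes and 1 lower (summed level 442 to 2241 CPM in mature adipocytes, against 189 to 799 CPM in high-fat preadipocytes), and 4 of 7 mural cell markers were higher (635 to 1471 CPM in mature adipocytes, against 102 to 498.5 CPM in preadipocytes). All 7 mesothelial markers were lower (35.6 to 141 CPM in mature adipocytes, against 130 to 1191 CPM in preadipocytes), as were 6 of 8 B cell markers (7.78 to 24.7 CPM in mature adipocytes, against 17.7 to 149 CPM in preadipocytes) and 7 of 9 T and NK cell markers (3.70 to 8.21 CPM in mature adipocytes, against 9.37 to 51.5 CPM in preadipocytes). Of 6 dendritic cell markers 1 was higher and 2 lower, and of 5 neutrophil markers that could be tested 3 were lower. Neither fraction was free of macrophages: none of 22 macrophage markers was at 0 in any library. Their summed level was 3652 to 12020 CPM (counts scaled to the size of the library) in high-fat mature adipocytes and 2321 to 11660 CPM in high-fat preadipocytes, against 2005 and 2392 CPM in the low-fat preadipocyte libraries. In each fraction a pair of libraries stood apart by this sum, MSEW libraries 3 and 4 among preadipocytes (10320 and 11660 CPM) and MSEW library 1 and control library 2 among mature adipocytes (8902 and 12020 CPM), and results that rest on them are given with and without them. The part that macrophages and these other cell types have in the results was not tested.

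As background, lysosomal enzymes are made in the endoplasmic reticulum, tagged in the Golgi and carried by sorting receptors to the lysosome. There a V-type ATPase, built of a membrane-embedded V0 sector that carries protons and a cytosolic V1 sector that splits ATP, keeps the lumen acid, and heavily glycosylated membrane proteins line the inner face. The transcription factors TFEB, TFE3 and MITF raise many of these genes together by binding a palindromic DNA motif called the CLEAR element. In adipose tissue, the lysosomal acid lipase of macrophages handles lipid taken up from dying fat cells, and autophagy takes part in adipocyte differentiation.

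The motif was looked for in promoter windows of 300 bases (250 before the start site and 50 after) from RefSeq on build GRCm38.p6, for the 33 of the 39 genes with a window there, which had 43 windows. Both strands were searched for the E-box core CACGTG and for the longer TCACGTGA, each occurrence of which also holds the core. The core stood in 11 of 43 windows (25.6%), against 7.15% of all 32851 windows. TCACGTGA stood in 6 of 43, against 0.974% of all windows, and a form with a G before and a C after it in 0 of 43, against 0.326% of all. The stretches around these matches are shown because the transcription factors that read them are among the genes described; each is written 5′ to 3′ on the gene's own strand, with the motif in capitals. A match of letters is a description and not evidence of binding.
Ctsa: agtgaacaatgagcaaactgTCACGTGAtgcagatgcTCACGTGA
Ctsd: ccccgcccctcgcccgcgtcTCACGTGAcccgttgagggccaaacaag
Mcoln1: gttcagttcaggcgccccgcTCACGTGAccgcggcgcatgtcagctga
Atp6v0d1: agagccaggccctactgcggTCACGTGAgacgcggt
Atp6v1a: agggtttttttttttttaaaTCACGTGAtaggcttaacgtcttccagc
Gla: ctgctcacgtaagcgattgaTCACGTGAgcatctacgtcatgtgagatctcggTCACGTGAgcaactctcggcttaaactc
Lamp1: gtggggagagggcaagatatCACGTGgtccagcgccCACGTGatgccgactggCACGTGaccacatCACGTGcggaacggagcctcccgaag
The Ctsa stretch is chr2:164833740-164833784 on the plus strand, the Ctsd stretch chr7:142387899-142387946 on the minus strand and the Mcoln1 stretch chr8:3500453-3500500 on the plus strand. The Atp6v0d1 stretch is chr8:105566053-105566088 and the Atp6v1a stretch chr16:44139364-44139411, both on the minus strand. The Gla stretch, with 2 copies of TCACGTGA, is chrX:134601173-134601253 on the minus strand. Lamp1 lacked the longer motif but had 4 copies of CACGTG within 92 bases, chr8:13159080-13159171 on the plus strand. The remaining genes with CACGTG alone were Glb1, Gaa, Lgmn and Ctsl.

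Levels below are CPM divided by the gene length in kilobases (CPM per kb), which allows genes to be set beside each other. Psap, the precursor of the saposins that present sphingolipids to their hydrolases, had the highest level of the 39 in both fractions, with a median of 1775 CPM per kb over the 6 high-fat mature adipocyte libraries and 989.6 over the 8 high-fat preadipocyte libraries. In mature adipocytes it was followed by the aspartic protease gene Ctsd (median 879), the cysteine protease gene Ctsb (749) and the membrane protein gene Lamp1 (406). In preadipocytes the next were Ctsb (353), the cysteine protease gene Ctss (261), Lamp1 (241) and Ctsd (240), and the ranges of these 4 over libraries overlapped. The transcription factors and the calcium channel gene Mcoln1 were among the lowest in both fractions: in mature adipocytes the medians were 4.22 CPM per kb for Tfeb, 7.28 for Mcoln1, 8.73 for Tfe3 and 3.93 for Mitf, and in preadipocytes they were 3.16 for Tfeb, 5.77 for Mcoln1, 8.12 for Tfe3 and 10.7 for Mitf. Together the 39 genes took 1.29 to 2.95% of all counts in mature adipocytes and 1.08 to 2.96% in high-fat preadipocytes, against 0.918 and 0.931% in the low-fat preadipocyte libraries.

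Mature adipocytes were first set against preadipocytes on the high-fat diet. The proton pump was the group that separated most evenly. Of its 9 subunits 7 were higher in mature adipocytes, by 1.52-fold to 3.96-fold, and none lower. Beside this, 26.9% of all genes were higher and 32.9% lower. The hydrolases split, with Ctsd, Ctsb and Ctsz higher and Ctsh and Gla lower, and so did the membrane proteins, with Lamp1 higher and Lamp2 and Scarb2 lower. Mitf was the most reduced of the 39 genes, 3.03-fold. In bulk samples such as these, a difference in the number of cells of a type and one in RNA per cell cannot be told apart.

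At a Benjamini-Hochberg adjusted p of 0.05 in edgeR's quasi-likelihood F test, 12 of the 39 genes were higher and 5 lower in mature adipocytes. The fractions differed widely: 59.8% of the 17948 genes tested passed, 26.9% higher and 32.9% lower, so the 12 of 39 higher is close to the share of all genes. The median log2 fold change of the 39 genes was 0.32, against −0.22 over all genes tested, and 29 of the 39 were positive, against 43.8% of all genes. Another normalisation (size factors of the DESeq2 type) moved the median of all genes to −0.32 and that of the 39 to 0.21. With it 25 of the 39 were positive, against 40.9% of all genes, and 16 passed, against 61% of all genes.

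**Figure D1:**
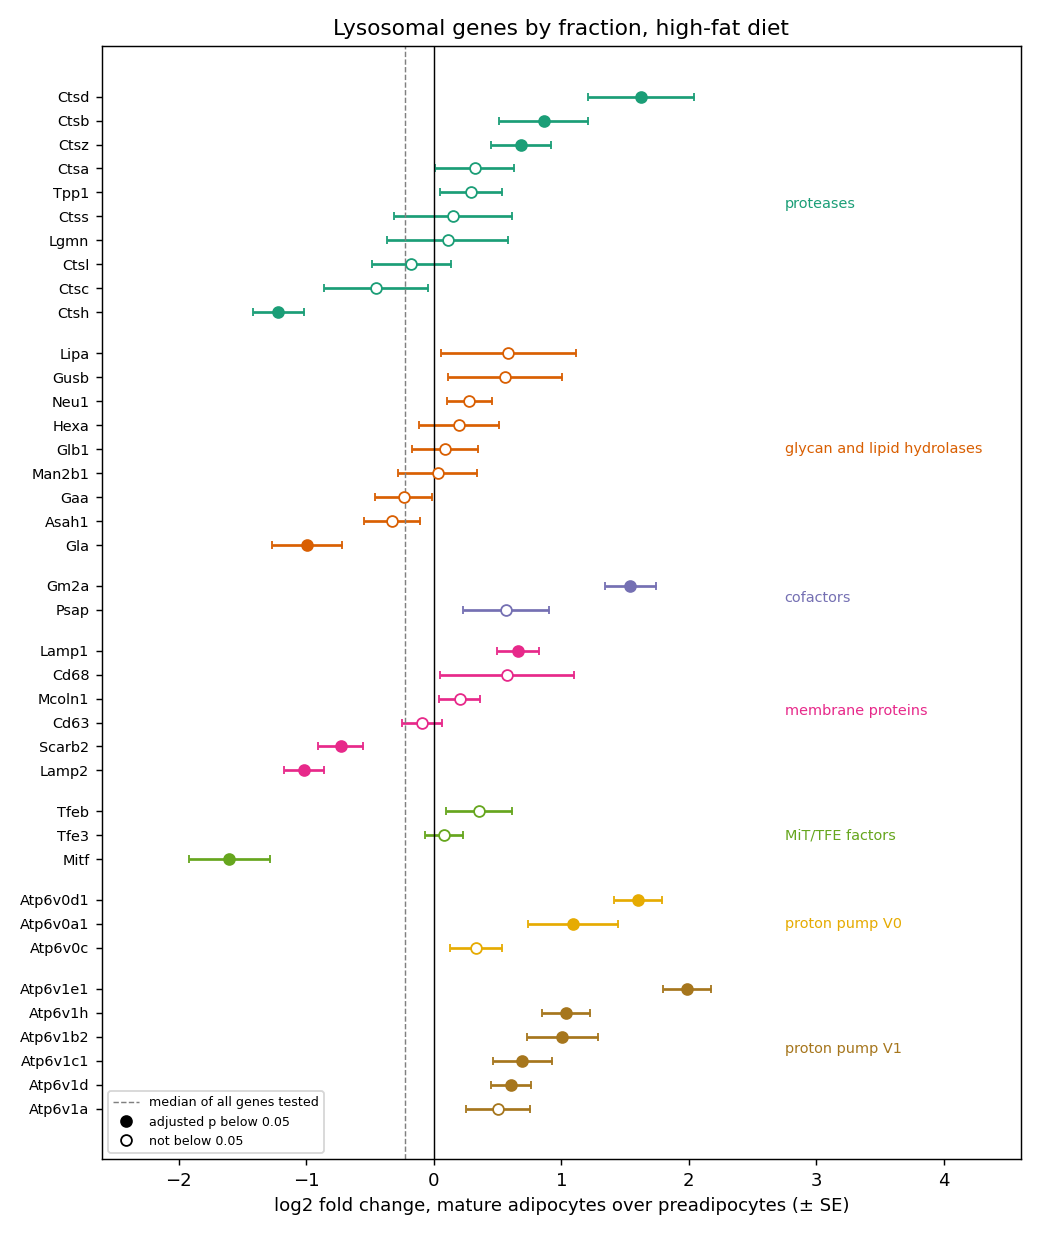
Log2 fold change of each of the 39 lysosomal genes, mature adipocytes over preadipocytes on the high-fat diet (± SE from the edgeR fit), grouped by role. Filled points passed at an adjusted p of 0.05 and open points did not. The dashed line is the median of all genes tested (−0.22). Of the 9 proton pump subunits 7 are filled and to the right of 0, beside 26.9% of all genes.

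Among the V1 subunits, Atp6v1e1, part of the peripheral stalk that holds the ATP-splitting head in place, ranged over 60.1, 79.0 and 115 CPM per kb (lowest, median and highest of 6 libraries) in mature adipocytes, against 18.7, 22.9 and 25.2 over the 8 preadipocyte libraries. The ranges did not overlap, and the log2 fold change was 1.99 ± 0.19 (SE; 3.96-fold, adjusted p = 6.33e-07). Atp6v1h, a regulatory subunit of the same sector, had 9.74, 15.5 and 19.5 CPM per kb in mature adipocytes, against 4.74, 7.81 and 9.63 in preadipocytes, again without overlap but with control mature adipocyte library 3 close to the preadipocytes (log2 fold change 1.04 ± 0.19, adjusted p = 0.000272). Atp6v1b2, the B subunit of the catalytic head in most tissues, had 59.4, 71.7 and 127 CPM per kb in mature adipocytes, against 27.2, 35.9 and 77.6 in preadipocytes. Its ranges overlapped through MSEW preadipocyte libraries 3 and 4, and the log2 fold change was 1.01 ± 0.28 (adjusted p = 0.0063). The remaining V1 calls were Atp6v1c1 (1.62-fold, adjusted p = 0.0181) and Atp6v1d (1.52-fold, adjusted p = 0.00397). Atp6v1a, the ATP-splitting subunit itself, did not pass (log2 fold change 0.50 ± 0.25, adjusted p = 0.0975).

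In the V0 sector, Atp6v0d1, which joins the membrane ring to the V1 stalk, had 109, 147 and 225 CPM per kb in mature adipocytes, against 44.2, 50.5 and 61.7 in preadipocytes. No mature adipocyte library came down to the highest preadipocyte library (log2 fold change 1.60 ± 0.19, 3.03-fold, adjusted p = 5.01e-06). Atp6v0a1, one of several isoforms of the large subunit that carries protons to the ring, had 40.0, 53.9 and 80.4 CPM per kb in mature adipocytes, against 13.5, 18.7 and 56.9 in preadipocytes. Here MSEW preadipocyte libraries 3 and 4, at 56.9 and 50.7, reached into the mature adipocyte range (log2 fold change 1.09 ± 0.35, adjusted p = 0.015). Atp6v0c, the proton-carrying ring subunit, had 18.1, 35.2 and 46.5 CPM per kb in mature adipocytes, against 22.4, 26.7 and 37.2 in preadipocytes. Its ranges overlapped and it did not pass (log2 fold change 0.33 ± 0.20, adjusted p = 0.173).

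Of the 10 proteases, 3 were higher and 1 lower, beside 26.9% and 32.9% of all genes. Ctsd, the main aspartic protease of lysosomes, had 693, 879 and 1409 CPM per kb in mature adipocytes, against 139, 240 and 823 in preadipocytes, where only MSEW libraries 3 and 4 exceeded the control range (log2 fold change 1.62 ± 0.41, 3.08-fold, adjusted p = 0.00358). Ctsb, a cysteine protease with exopeptidase activity, had 539, 749 and 1140.4 CPM per kb in mature adipocytes, against 249.9, 353 and 919.7 in preadipocytes (1.82-fold, adjusted p = 0.0427). Ctsz, a carboxypeptidase, had 255, 299 and 476 in mature adipocytes, against 153, 183 and 346 in preadipocytes (1.61-fold, adjusted p = 0.0213). Both lie near the threshold: leaving out each library in turn put Ctsb above it for 8 of 14 libraries (adjusted p up to 0.113) and Ctsz for control preadipocyte library 2, control mature adipocyte library 2 and MSEW mature adipocyte library 1 (adjusted p = 0.0546, 0.0509 and 0.0634). Leaving out control preadipocyte library 1 or 3 kept its near copy in the fit. Without both of these Ctsb was above the threshold too (adjusted p = 0.0817) and Ctsz was not.

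Ctsh, an aminopeptidase of the cathepsin family, went the opposite way, with 19.7, 28.2 and 40.8 CPM per kb in mature adipocytes, against 50.02, 60.2 and 81.1 in preadipocytes. The ranges were separate, and the log2 fold change was −1.22 ± 0.20 (adjusted p = 9.98e-05). The other 6 proteases did not pass, from Ctsa (log2 fold change 0.32 ± 0.31) to Ctsc (−0.45 ± 0.41). Ctss, an elastin-cleaving cathepsin of antigen-presenting cells, had almost coinciding ranges, 124 to 612 CPM per kb in mature adipocytes and 106 to 601 in preadipocytes (log2 fold change 0.15 ± 0.47, adjusted p = 0.797). The count of Ctsa is uncertain, because the gene overlaps Pltp on the opposite strand, Pltp had more counts than Ctsa, and the sources used here do not state the strand setting of the counting.

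Among the 9 hydrolases of glycans and lipids, Gla, the alpha-galactosidase that trims globosides, was lower, with 10.8, 14.01 and 32.2 CPM per kb in mature adipocytes, against 21.8, 36.0 and 46.3 in preadipocytes (log2 fold change −0.99 ± 0.28, adjusted p = 0.00614). The other 8 did not pass. Lipa, the lysosomal acid lipase that frees cholesterol and fatty acids from lipoprotein and droplet lipids, was the most spread of them, at 40.6, 116 and 302 CPM per kb in mature adipocytes and 47.3, 69.9 and 255 in preadipocytes (log2 fold change 0.58 ± 0.53, adjusted p = 0.357). Its 4 highest libraries were control mature adipocyte library 2, MSEW mature adipocyte library 1 and MSEW preadipocyte libraries 4 and 3, the same 4 that had the highest macrophage marker sums. Of the cofactors, Gm2a, the GM2 ganglioside activator that presents its lipid to hexosaminidase, had 61.7, 101 and 136 CPM per kb in mature adipocytes, against 25.9, 33.8 and 40.6 in preadipocytes. All 6 mature adipocyte libraries exceeded all 8 preadipocyte libraries (log2 fold change 1.54 ± 0.20, adjusted p = 1.37e-05). Psap did not pass (log2 fold change 0.57 ± 0.34, adjusted p = 0.159), nor did Hexa, the enzyme that Gm2a serves (0.20 ± 0.32, adjusted p = 0.607).

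The 2 main structural glycoproteins of the lysosomal membrane went in opposite directions. Lamp1 had 332, 406 and 472 CPM per kb in mature adipocytes, against 209, 241 and 335 in preadipocytes, with MSEW preadipocyte library 3 just above the lowest mature adipocyte library (log2 fold change 0.66 ± 0.17, adjusted p = 0.00348). Lamp2, whose splice forms also serve chaperone-mediated autophagy and autophagosome fusion, had 23.7, 31.5 and 40.3 CPM per kb in mature adipocytes, against 55.6, 63.3 and 77.6 in preadipocytes. Every mature adipocyte library lay below every preadipocyte library (log2 fold change −1.02 ± 0.16, adjusted p = 7.05e-05); the table gives no splice forms. Scarb2, the sorting receptor of beta-glucocerebrosidase, had 19.9, 35.2 and 39.9 CPM per kb in mature adipocytes, against 41.1, 51.5 and 67.7 in preadipocytes (log2 fold change −0.73 ± 0.18, adjusted p = 0.00277). Cd68, a lysosomal glycoprotein used as a macrophage marker, did not pass (log2 fold change 0.58 ± 0.53, adjusted p = 0.362), with 103, 246 and 542 CPM per kb in mature adipocytes and 58.8, 157 and 448 in preadipocytes. Mcoln1, the calcium channel of the lysosomal membrane, and the tetraspanin gene Cd63 did not pass either (0.21 ± 0.16 and −0.09 ± 0.16).

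Of the transcription factors, Mitf had 1.55, 3.93 and 6.73 CPM per kb in mature adipocytes, against 8.07, 10.7 and 16.2 in preadipocytes. The ranges were separate, and the log2 fold change was −1.60 ± 0.31 (adjusted p = 0.000499). Tfeb had 2.81, 4.22 and 7.29 CPM per kb in mature adipocytes and 2.35, 3.16 and 6.33 in preadipocytes (log2 fold change 0.35 ± 0.26, adjusted p = 0.25). Tfe3 had 6.57, 8.73 and 11.3 in mature adipocytes and 7.33, 8.12 and 9.09 in preadipocytes, with a log2 fold change of 0.08 ± 0.15 (adjusted p = 0.654). The genes whose promoters held TCACGTGA had no common direction: Ctsd and Atp6v0d1 were higher in mature adipocytes, Gla was lower, and Ctsa, Mcoln1 and Atp6v1a did not pass.

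**Figure D2:**
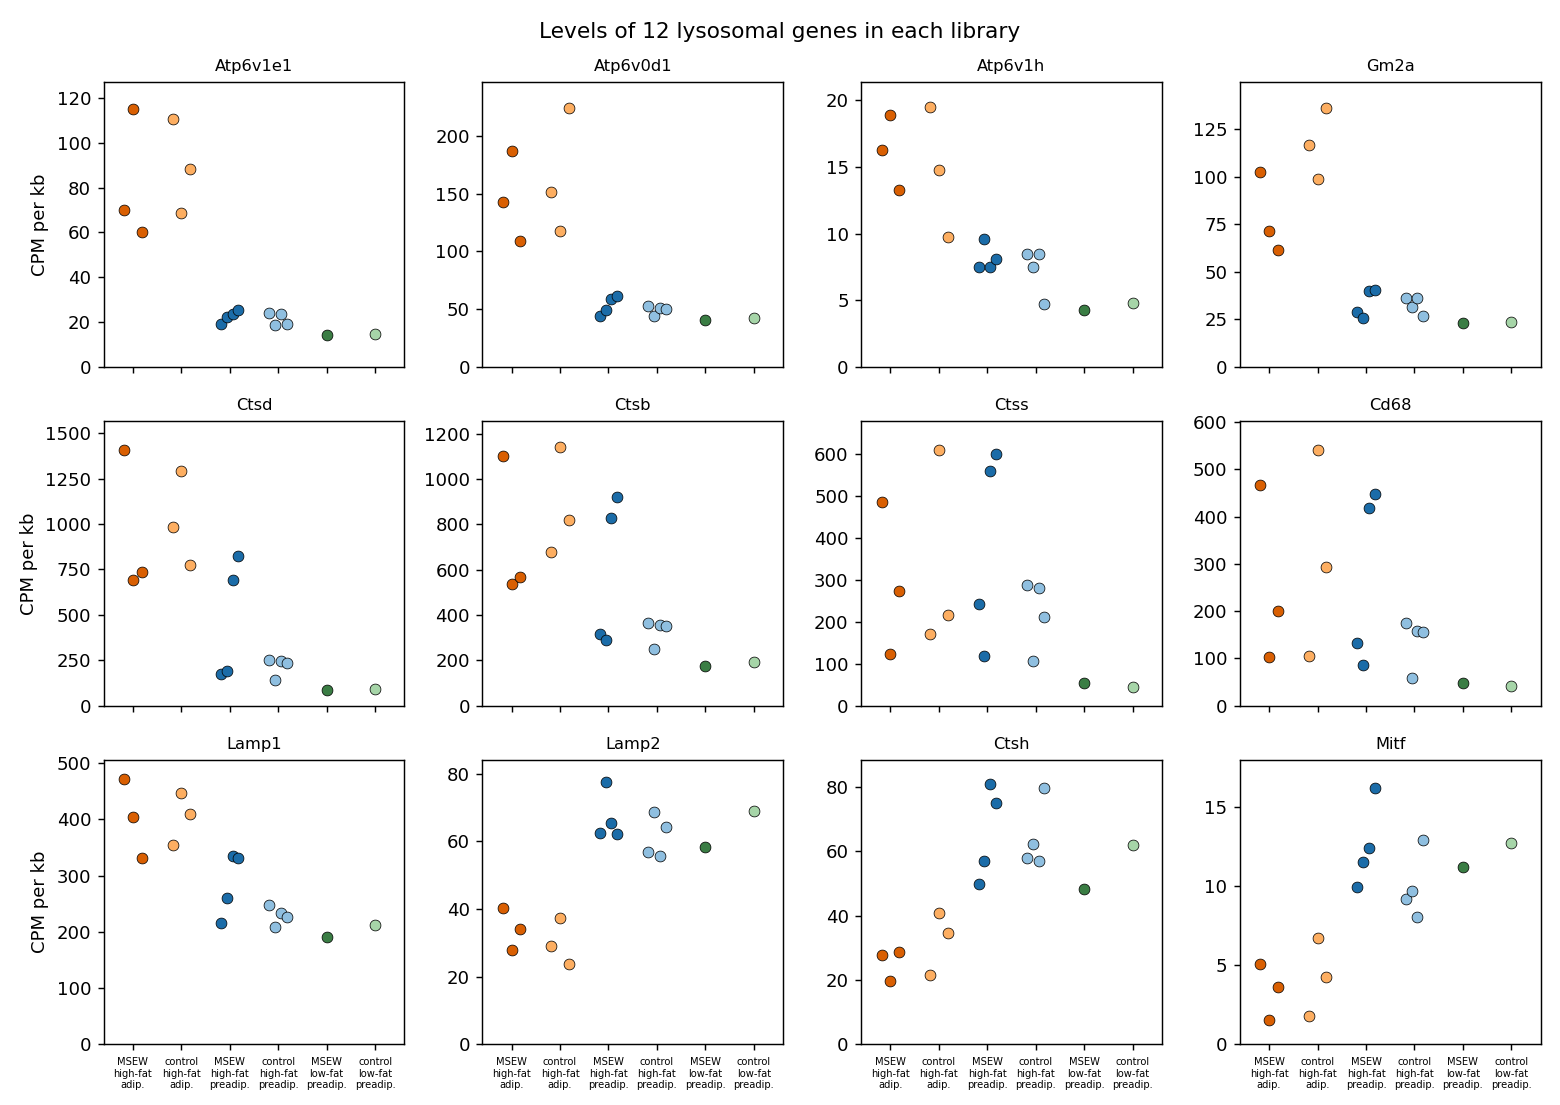
Level in every library (CPM per kb, axes from 0) of 12 lysosomal genes, by group, 1 point for each library. In the top row Atp6v1e1, Atp6v0d1, Atp6v1h and Gm2a are higher in all 6 mature adipocyte libraries than in any preadipocyte library; Ctss and Cd68 are highest in a pair of libraries within each fraction, and Lamp2, Ctsh and Mitf are lower in mature adipocytes.

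The macrophage markers as a list did not differ between fractions in a common direction: 2 of 22 were higher and 1 lower. The higher ones were Fabp5 and Lgals3, and the lower one was Cd9. Beside this, 26.9% of all genes were higher and 32.9% lower. The median log2 fold change of the list was 0.01, against −0.22 over all genes. Without MSEW preadipocyte libraries 3 and 4, 20 of the 39 lysosomal genes were higher and 5 lower. In that fit 25.1% of all 18603 genes were higher and 5928 lower. The additions were Ctsa, Tpp1, Lipa, Gusb, Psap, Cd68, Tfeb and Atp6v1a. Without MSEW mature adipocyte library 1 and control mature adipocyte library 2, 6 were higher and 6 lower. The higher ones were Atp6v1e1, Atp6v0d1, Gm2a, Ctsd, Atp6v1h and Atp6v1d. In this fit 23.2% of all 18707 genes were higher and 6639 lower. The median over the 39 was −0.10, against −0.45 over all genes. Atp6v1e1, Atp6v0d1, Atp6v1h and Gm2a were higher, and Lamp2, Ctsh and Mitf lower, under each of the 27 alternative analyses, these included.

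The same comparison was fitted within each early life group. In MSEW libraries alone 5 of the 39 genes were higher and 4 lower, beside 24.7% of all 16489 genes higher and 4135 lower. In control libraries alone 11 were higher and 3 lower, beside 18.5% of all 16315 genes higher and 2975 lower. Ctsd had a log2 fold change of 0.98 in MSEW libraries, where it did not pass (adjusted p = 0.212), and Lamp1 and Scarb2 did not pass there either (adjusted p = 0.136 and 0.0529). Whether the difference between fractions depended on early life treatment was tested directly, as given further on.

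Other genes of the pathway were taken from lists by function, and their counts stand against the 26.9% of all genes that were higher and the 32.9% that were lower. Of 13 further pump subunits that could be tested, 7 were higher and 1 lower in mature adipocytes. Atp6v0e, a small V0 subunit, had 39 to 99.6 CPM per kb in mature adipocytes, against 14.9 to 24.9 in preadipocytes (log2 fold change 1.63 ± 0.23, adjusted p = 2.98e-05), and its isoform gene Atp6v0e2 had 9.24 to 44.2 in mature adipocytes, against 1.22 to 6.90 in preadipocytes (2.47 ± 0.42, adjusted p = 0.00017). Atp6v1c2, an isoform of the C subunit, was low throughout, at 0.715 to 4.22 CPM per kb in mature adipocytes and at most 0.194 in preadipocytes, and Atp6v0a4, an isoform known from the kidney, was at most 0.179 in mature adipocytes, against 0.0694 to 2.25 in preadipocytes.

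Of 27 further acid hydrolases, 4 were higher and 8 lower in mature adipocytes, against 26.9% and 32.9% of all genes. Acp5, the tartrate-resistant acid phosphatase, had 73.8 to 281 CPM per kb in mature adipocytes, against 11.3 to 39.9 in preadipocytes (log2 fold change 3.06 ± 0.41, adjusted p = 2.08e-05), and Smpd1, acid sphingomyelinase, had 28.3 to 62.8 in mature adipocytes, against 8.13 to 11.4 in preadipocytes (2.12 ± 0.21, adjusted p = 8.58e-07). Ppt2, a thioesterase, was 3.06-fold higher. Ctsk, the collagen-cleaving cathepsin, had 8.18 to 91.0 CPM per kb in mature adipocytes, against 107 to 250 in preadipocytes (−2.03 ± 0.46, adjusted p = 0.00162), Manba, beta-mannosidase, was 2.23-fold lower, and Ctsw, a protease of cytotoxic lymphocytes, was at most 0.768 in mature adipocytes, against 1.48 to 10.5 in preadipocytes.

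Of 21 further lysosomal membrane proteins, 6 were higher, against 26.9% of all genes, and 3 lower, against 32.9%. The higher ones included Tmem192, with 17.3 to 30.5 CPM per kb in mature adipocytes, against 2.97 to 8.24 in preadipocytes (log2 fold change 2.39). Mfsd8 (2.32) and Laptm4b (2.31) were nearly as far apart. The lower ones were the calcium channel gene Mcoln2 (log2 fold change −1.93), the sialic acid exporter gene Slc17a5 (−0.68) and the cystine exporter gene Ctns (−0.61).

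Sorting and nutrient sensing also differed by member. Of 14 sorting genes 7 were higher (26.9% of all genes were), led by Sort1, the sortilin receptor, with 36.1 to 85.3 CPM per kb in mature adipocytes, against 5.27 to 15.1 in preadipocytes (log2 fold change 2.78 ± 0.26, adjusted p = 6.79e-07), with the adaptor genes Gga1 (1.06) and Ap3d1 (0.87) next. Igf2r, the large mannose 6-phosphate receptor, was the 1 sorting gene that was lower, 2.46-fold. Of 18 nutrient-sensing genes 8 were higher, beside the same 26.9%, led by the Ragulator scaffold genes Lamtor1 (4.74-fold), Lamtor4 (3.96-fold) and Lamtor2 (2.80-fold). The 5 lower ones included Fnip1 (log2 fold change −1.65), its partner Flcn (−1.04) and the small GTPase gene Rragb (−1.66). Rragb was low throughout, at 0 to 0.29 CPM per kb in mature adipocytes and 0.0961 to 0.725 in preadipocytes. Of 22 autophagy genes 14 were higher, again beside 26.9% of all genes, led by the receptor gene Optn (5.81-fold), Map1lc3a (5.61-fold) and Atg7 (3.14-fold), and Wipi1 was lower (1.53-fold). Of 4 cathepsin inhibitors that could be tested, the cystatin genes Cst3 (1.97-fold) and Cstb (1.81-fold) were higher, also beside 26.9% of all genes.

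The question for the early life treatment was whether fat cells of MSEW mice differed from those of controls. In high-fat preadipocytes no lysosomal gene passed the test, and no gene of any kind did: 0 of 17129 (0%) passed at an adjusted p of 0.05, with 496 genes (2.90%) below an unadjusted 0.05. All but 1 of the 39 fold changes were nonetheless positive, against 53.0% of all genes, with a median log2 fold change of 0.45, against 0.02 over all genes. DESeq2 called 4 genes and limma on log2 FPKM 0, and none of the 39 in either.

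Most of the 38 positive fold changes depended on a pair of libraries. Ctsd had 171, 189, 691 and 823 CPM per kb in MSEW preadipocyte libraries 1 to 4, against 248.8, 139, 245 and 236 in control libraries 1 to 4. MSEW libraries 1 and 2 lay within the control range and libraries 3 and 4 far above it (log2 fold change 1.24 ± 0.65, unadjusted p = 0.0943). Lipa showed the same division, with 60.0, 52.6, 223 and 255 CPM per kb in MSEW libraries, against 72.8, 47.3, 67.0 and 80.5 in control libraries (1.23 ± 0.64). Cd68 had 132, 86.6, 419 and 448 in MSEW libraries, against 174, 58.8, 158 and 155 in control libraries (1.16 ± 0.69). MSEW libraries 3 and 4 were the 2 highest of the 8 for 29 of the 39 genes (74.4%), against 16.0% of 14529 genes with enough counts.

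The macrophage marker sum divided the libraries in the same way, at 4345, 2321, 10320 and 11660 CPM in MSEW libraries 1 to 4, against 6101, 2418, 5883 and 4794 CPM in control libraries. Adgre1, which encodes the F4/80 antigen of macrophages, stood at 154, 80.3, 523 and 797 CPM in MSEW libraries, against 231, 74.0, 226 and 192 CPM in control libraries. In the fit, 21 of 22 macrophage markers were positive with a median log2 fold change of 0.78, none of them called. Markers of some other cell types went the opposite way, also with none called: all 10 endothelial markers (median −1.18), all 8 B cell markers (−1.23) and all 7 mesothelial markers (−1.18) were negative. Endothelial marker sums were 432, 303, 201 and 189 CPM in MSEW libraries 1 to 4, against 380 to 799 CPM in control libraries. MSEW libraries 3 and 4 also had the lowest mesothelial (160 and 130 CPM) and mural cell (115 and 102 CPM) sums of the high-fat preadipocytes. Their B cell sums (28.9 and 62.7 CPM) were not the lowest. Their mature adipocyte marker sums were the highest (4394 and 4749 CPM), although Adipoq itself was lowest there (4.19 and 1.04 CPM). Without MSEW library 4 alone the median over the lysosomal genes was 0.29 with 36 of 39 positive. Without MSEW libraries 3 and 4 the median over the lysosomal genes was −0.11 and 12 of 39 were positive, against 45.7% of all genes, so the direction of most genes turned with these libraries. Ctsd, Lipa and Cd68 each turned negative without them. The pair was chosen after seeing the data and was highest for most of the 39 genes. Leaving it out was therefore bound to lower most fold changes.

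**Figure D3:**
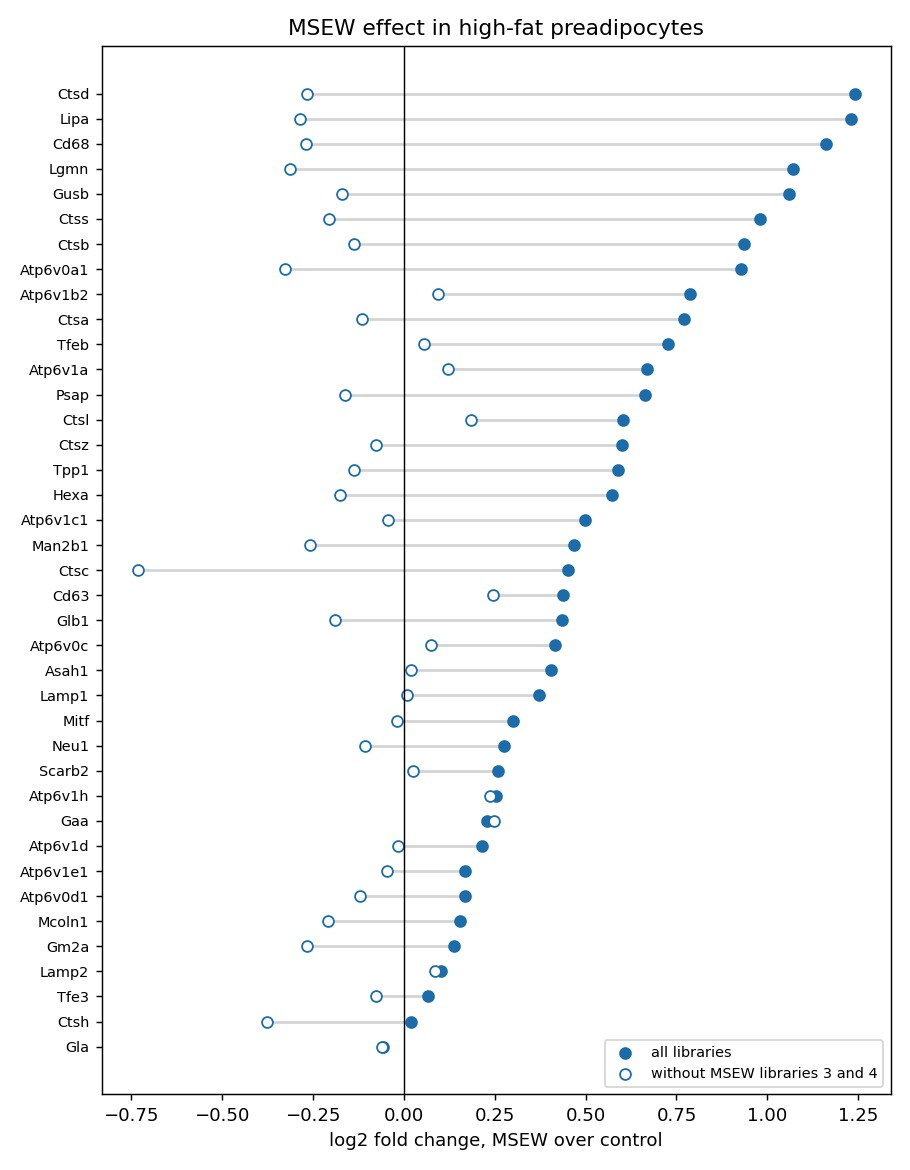
Log2 fold change of the 39 lysosomal genes, MSEW over control, in high-fat preadipocytes, with all libraries (filled) and without MSEW libraries 3 and 4 (open). None passed in either fit. With all libraries 38 of 39 lie above 0, and without the pair, chosen after seeing the data, 12 of 39 do.

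The lysosomal genes with the smallest unadjusted p in preadipocytes were Cd63, Atp6v1a, Atp6v1b2 and Ctsl. Cd63, a tetraspanin of late endosomes and exosomes, had 102, 122, 133 and 125 CPM per kb in MSEW libraries, against 81.5, 102, 84.3 and 86.8 in control libraries. Control library 2 reached the lowest MSEW library, and the log2 fold change was 0.44 ± 0.17 (unadjusted p = 0.0326, adjusted p = 0.973); Cd63 also has a named pseudogene that could take or give reads. Atp6v1a had 27.1, 31.8, 49.4 and 51.7 in MSEW libraries, against 27.9, 24.9, 29.6 and 23.9 in control libraries (unadjusted p = 0.0511). Atp6v1b2 had 32.8, 39.1, 65.8 and 77.6 in MSEW libraries, against 36.5, 27.2, 35.3 and 33.3 in control libraries (unadjusted p = 0.0585). Ctsl, an endopeptidase of the cathepsin family, had 144, 196, 261.8 and 245 in MSEW libraries, against 132, 169.75, 129 and 128 in control libraries (unadjusted p = 0.0587). In all 4 genes MSEW libraries 3 and 4 were the highest.

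Among the transcription factors, Tfeb had 3.41, 2.78, 5.87 and 6.33 CPM per kb in MSEW preadipocyte libraries, against 3.22, 2.35, 3.06 and 3.11 in control libraries, the same pair being high (log2 fold change 0.73 ± 0.36, unadjusted p = 0.076). Tfe3 had 8.68, 7.33, 8.29 and 9.09 in MSEW libraries, against 7.88, 7.94, 7.90 and 8.53 in control libraries, with overlapping ranges (0.07 ± 0.14). Mitf had 9.96, 11.5, 12.5 and 16.2 in MSEW libraries, against 9.23, 9.72, 8.07 and 12.9 in control libraries, where library 4 lay within the MSEW range (0.30 ± 0.23). Of the membrane proteins, Lamp2 had 62.4, 77.6, 65.4 and 62.2 in MSEW libraries, against 56.8, 68.7, 55.6 and 64.3 in control libraries (0.10 ± 0.14). Its values overlapped throughout, without the pair standing out. Lamp1 had 215, 259.9, 335 and 332 in MSEW libraries, against 248, 209, 234 and 226 in control libraries (0.37 ± 0.23). Mcoln1 had 5.12, 5.55, 8.003 and 7.03 in MSEW libraries, against 4.59, 5.98, 5.07 and 6.94 in control libraries (0.16 ± 0.23). Atp6v0c had 26.5, 26.7, 35.9 and 37.2 in MSEW libraries, against 26.9, 23.2, 26.7 and 22.4 in control libraries (0.42 ± 0.21). In these 3 genes libraries 3 and 4 were again the highest.

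In mature adipocytes no lysosomal gene passed either. Of 14485 genes 0 (0%) passed, and 417 (2.88%) were below an unadjusted 0.05, none of them among the 39; DESeq2 called 9 genes and limma on log2 FPKM 0, again none of the 39. The median log2 fold change was −0.16, against −0.01 over all genes, and 14 of 39 were positive, against 49.2% of all genes. Here 1 library in each arm was high: Ctsd had 1409, 693 and 738 CPM per kb in MSEW libraries 1 to 3, against 983, 1294 and 776 in control libraries 1 to 3. Cd68 had 466, 103 and 199 in MSEW libraries, against 105, 542 and 292 in control libraries, and Lipa 277, 55.0 and 125 in MSEW libraries, against 40.6, 302 and 107 in control libraries. The groups overlapped in every one of these (log2 fold changes −0.13 ± 0.39, −0.32 ± 0.63 and −0.00 ± 0.71).

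MSEW library 1 and control library 2 were the 2 highest of the 6 mature adipocyte libraries for 24 of the 39 genes (61.5%), against 11.2% of 12422 genes, and their macrophage marker sums were 8902 and 12020 CPM, against 3652 to 6049 CPM in the other 4. Without control library 2 the median over the 39 genes was 0.18 with 27 positive, and without MSEW library 1 it was −0.39 with 11 positive. It was −0.34 without control library 1, 0.01 without MSEW library 2 and −0.06 without MSEW library 3, so the median moved with single libraries. Without both control library 2 and MSEW library 1 it was −0.10 with 15 positive, against 50.4% of all genes, and none of the 39 passed while 22 of 14612 genes did. The macrophage markers had a median of −0.40 in the comparison of all libraries, with 17 of 22 negative. The 4 genes with the smallest unadjusted p were Gm2a, Scarb2, Hexa and Man2b1, which had p of 0.099 to 0.296. Gm2a had 102, 71.5 and 61.7 CPM per kb in MSEW libraries, against 117, 99.1 and 136 in control libraries (log2 fold change −0.61 ± 0.34). Scarb2 had 31.9, 39.2 and 39.9 in MSEW libraries, against 19.9, 38.6 and 21.7 in control libraries (0.45 ± 0.35). Both genes overlapped between the groups. Hexa, the alpha subunit of hexosaminidase, had 221, 81.7 and 100.4 in MSEW libraries, against 120.4, 235 and 215 in control libraries (−0.53 ± 0.44), and Man2b1, the alpha-mannosidase, had 42.1, 22.9 and 25.9 in MSEW libraries, against 19.3, 61.7 and 44.6 in control libraries (−0.49 ± 0.45).

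The other genes followed in every comparison overlapped between the groups as well, with unadjusted p from 0.528 to 0.926. Lamp1 had 472, 404 and 332 CPM per kb in MSEW libraries, against 354, 447 and 409 in control libraries. Lamp2 had 40.3, 27.8 and 33.9 in MSEW libraries, against 29.1, 37.2 and 23.7 in control libraries. Tfeb had 7.29, 3.68 and 4.02 in MSEW libraries, against 2.81, 5.91 and 4.43 in control libraries, so that its highest library in each arm was again MSEW library 1 or control library 2. Tfe3, which had 7.33, 9.71 and 7.88 in MSEW libraries, against 6.57, 9.58 and 11.3 in control libraries, did not follow them. Mitf had 5.06, 1.55 and 3.60 in MSEW libraries, against 1.80, 6.73 and 4.26 in control libraries, with the same pair high. Mcoln1 had 8.04, 8.62 and 5.95 in MSEW libraries, against 5.35, 7.37 and 7.19 in control libraries, and Atp6v0c had 39.4, 46.1 and 28.2 in MSEW libraries, against 31.1, 46.5 and 18.1 in control libraries.

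Whether MSEW acted differently in mature adipocytes and preadipocytes was tested as an interaction over the high-fat libraries. Of 17948 genes 0 (0%) passed, 873 (4.86%) were below an unadjusted 0.05, and none of the 39 was below either threshold; DESeq2 called 3 genes and limma on log2 FPKM 0, with none of the 39. The median difference was −0.50 on the log2 scale, against 0.01 over all genes, with 5 of 39 positive, against 50.4% of all genes, and 34 negative (a lower MSEW over control ratio in mature adipocytes than in preadipocytes). Without MSEW preadipocyte libraries 3 and 4 the median was −0.08 with 17 of 39 positive (51.8% of all genes). Leaving out control mature adipocyte library 2 gave −0.27 with 11 positive (56.9% of all genes), leaving out MSEW mature adipocyte library 1 gave −0.73 with 5 positive (50.9%), and leaving out both control mature adipocyte library 2 and MSEW mature adipocyte library 1 gave −0.44 with 11 positive (57.3% of all genes). None of the 39 passed in these fits. The macrophage markers had a median difference of −1.04, whereas all 10 endothelial markers (median 1.47) and all 8 B cell markers (2.30) were positive. The smallest unadjusted p from edgeR, 0.0773 to 0.0943, were those of Gm2a (difference −0.70 ± 0.36), Ctsb (−1.15 ± 0.63), Cd63 (−0.52 ± 0.29) and Hexa (−1.04 ± 0.58), each with an adjusted p = 0.934. Ctsb illustrates them, with 1101.1, 539 and 566 CPM per kb in MSEW mature adipocytes, against 678, 1140.4 and 819.6 in control ones, and 317, 289.7, 829 and 919.7 in MSEW preadipocytes, against 364, 249.9, 355 and 351 in control ones. Gm2a had 28.6, 25.9, 40.0 and 40.6 in MSEW preadipocytes, against 36.1, 31.5, 36.1 and 26.7 in control ones. Its mature adipocyte values are given above. Cd63 had 99.4, 93.6 and 94.5 in MSEW mature adipocytes, against 94.6, 122 and 90.0 in control ones, and Hexa had 103, 108, 206 and 239 in MSEW preadipocytes, against 126, 89.7, 127 and 126 in control ones. The libraries with high macrophage marker sums were the high ones for Ctsb in both fractions and for Hexa in preadipocytes. In mature adipocytes control library 3, whose marker sum was not among the high ones, had nearly as much Hexa as they did.

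**Figure D4:**
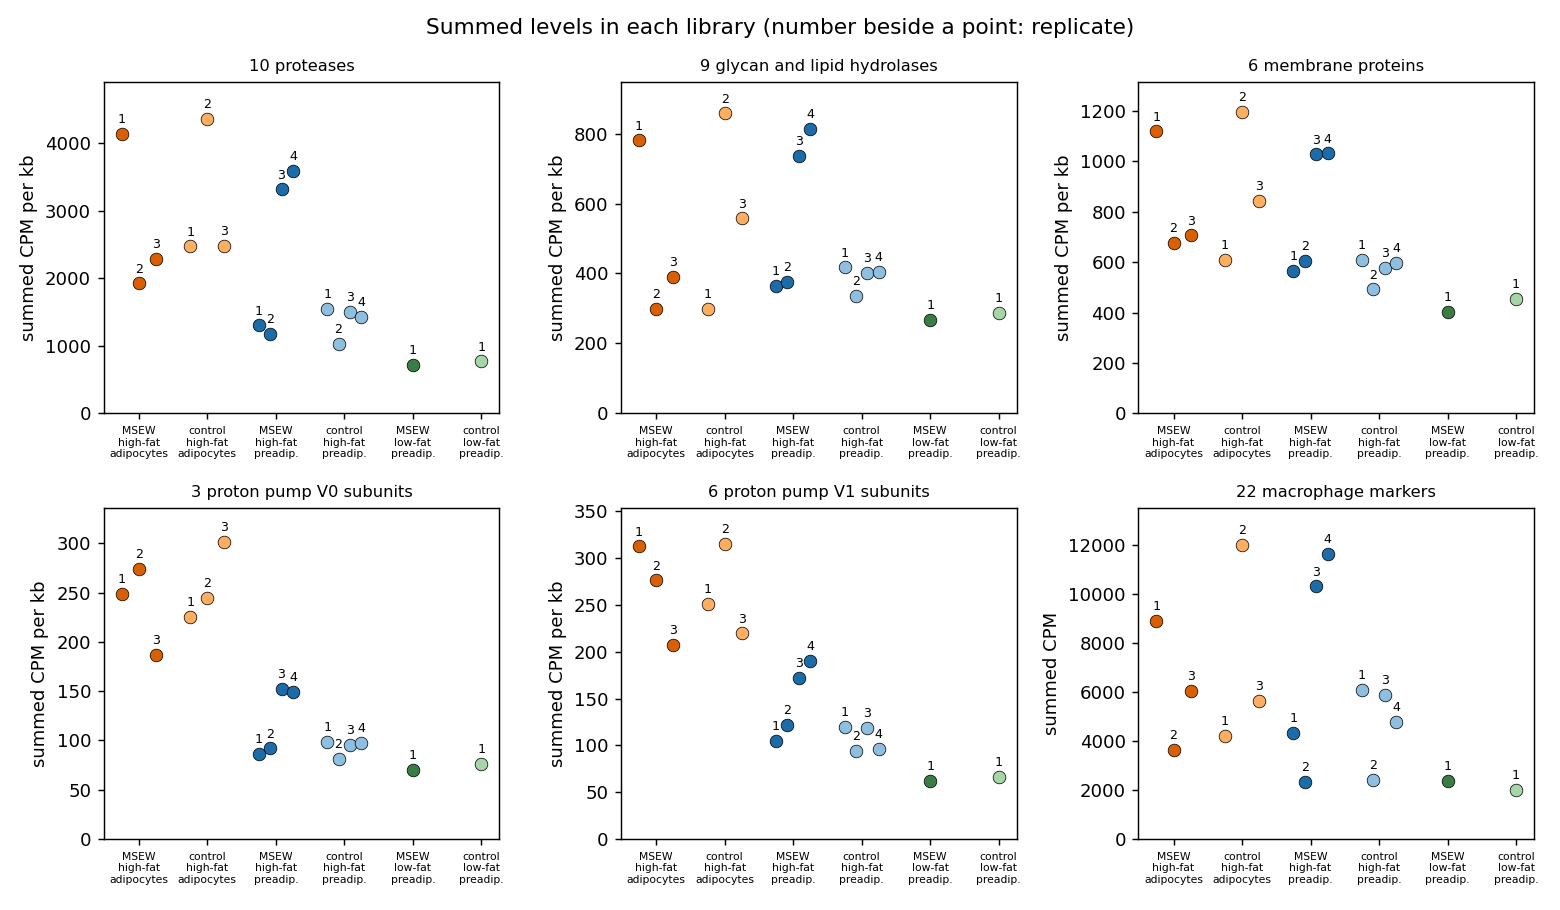
Summed level of 5 role groups of lysosomal genes (CPM per kb) and of 22 macrophage markers (CPM) in every library, numbered by replicate, axes from 0. Sums of proteases, glycan and lipid hydrolases, membrane proteins and macrophage markers are high in a pair of libraries in each fraction. These are MSEW library 1 and control library 2 of mature adipocytes and MSEW libraries 3 and 4 of preadipocytes. The V0 sums are higher in all 6 mature adipocyte libraries than in any preadipocyte library. Among preadipocytes the V0 and V1 sums, too, are highest in MSEW libraries 3 and 4.

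Not every role group separated the fractions in summed levels. Protease sums were 4141, 1925 and 2293 CPM per kb in MSEW mature adipocyte libraries 1 to 3, against 2472, 4357 and 2477 in control ones, and 1302, 1177, 3317 and 3597 in MSEW preadipocyte libraries 1 to 4, against 1548, 1024, 1500 and 1427 in control ones. V0 sums were 187 to 301 CPM per kb in mature adipocytes and 81.1 to 152 in high-fat preadipocytes. V1 sums were 207 to 316 in mature adipocytes and 94.0 to 190.3 in high-fat preadipocytes, with no overlap between fractions for either sector. The protease sums of the fractions did overlap. Among preadipocytes the pump sums were also highest in MSEW libraries 3 and 4, at 152 and 149.6 for V0 and 172.5 and 190.3 for V1. In the other high-fat preadipocyte libraries they were 81.1 to 98.5 for V0 and 94.0 to 122 for V1. Among mature adipocytes V1 sums were highest in control library 2 and MSEW library 1 (315.5 and 312.6). V0 sums were highest there in control library 3 (301).

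The diet comparison set high-fat against low-fat preadipocytes, with 1 low-fat library of each early life group. No gene passed in edgeR: 0 of 19998 (0%), with 2456 (12.3%) below an unadjusted 0.05, 6.15% higher and 6.14% lower on the high-fat diet. Of the 39 lysosomal genes 12 were below an unadjusted 0.05, all of them higher on the high-fat diet and among them all 6 V1 subunits, and the smallest adjusted p was 0.332. The median log2 fold change of the 39 was 0.60, against 0.02 over all genes, and 37 of 39 were positive, against 52.2% of all genes. DESeq2 called 408 genes, 271 of them higher (1.62% of the genes it adjusted), including Ctss (adjusted p = 0.00382), Atp6v1a (0.0344) and Cd68 (0.0447); limma on log2 FPKM called none of the 39.

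Both low-fat libraries were the 2 lowest of the 10 preadipocyte libraries for 22 of the 39 genes (56.4%), against 7.64% of 15084 genes. Ctss had 242, 118, 561 and 601 CPM per kb in MSEW high-fat libraries and 289, 106, 280.3 and 212 in control high-fat libraries, against 52.8 and 43.8 in the MSEW and control low-fat libraries. Every high-fat library exceeded both low-fat ones (log2 fold change 2.54 ± 0.74, unadjusted p = 0.00755). Atp6v1a had 27.1, 31.8, 49.4 and 51.7 in MSEW and 27.9, 24.9, 29.6 and 23.9 in control high-fat libraries, against 14.9 and 15.1 in the low-fat libraries, again without overlap (1.10 ± 0.32, unadjusted p = 0.00778). Atp6v1e1 had 19.2, 22.2, 23.7 and 25.2 in MSEW and 23.9, 18.7, 23.5 and 19.0 in control high-fat libraries, against 14.2 and 14.8 in the low-fat libraries (0.58 ± 0.18, unadjusted p = 0.0104). Atp6v1h had 7.47, 9.63, 7.53 and 8.09 in MSEW and 8.45, 7.52, 8.44 and 4.74 in control high-fat libraries, against 4.28 and 4.78 in the low-fat libraries, so that control high-fat library 4 lay with the low-fat ones (0.73 ± 0.22, unadjusted p = 0.00928).

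**Figure D5:**
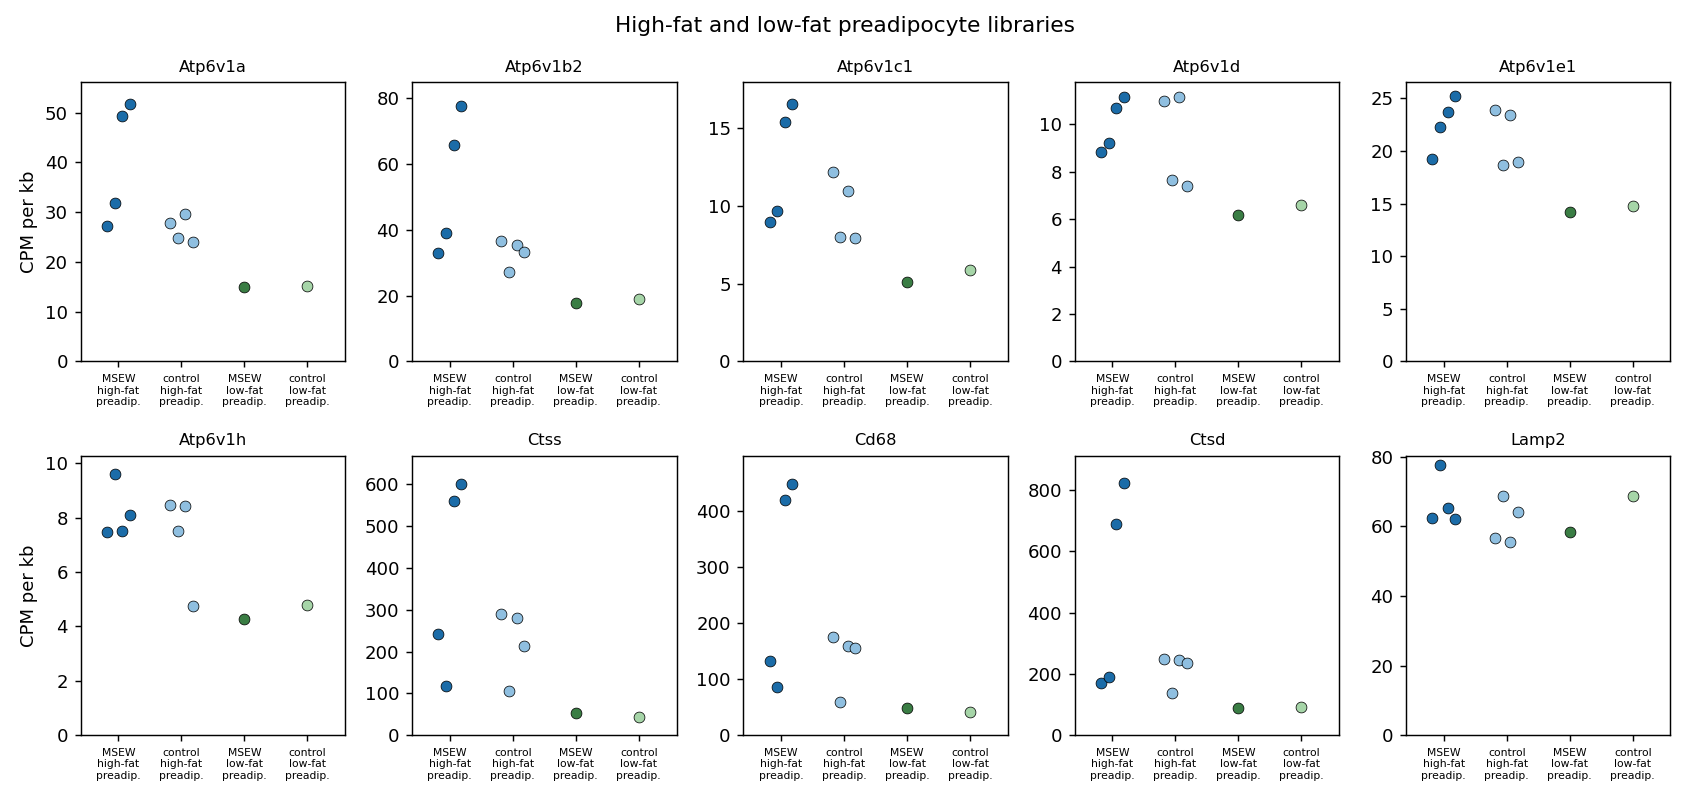
Level (CPM per kb, axes from 0) of the 6 V1 subunits, Ctss, Cd68, Ctsd and Lamp2 in the 10 preadipocyte libraries, 1 point for each library. For Atp6v1a, Atp6v1b2, Atp6v1c1, Atp6v1d, Atp6v1e1, Ctss, Cd68 and Ctsd all high-fat libraries lie above both low-fat libraries, and Lamp2 does not separate.

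The summed V1 level was 94.0 to 190.3 CPM per kb in the 8 high-fat libraries, against 62.4 and 66.3 in the low-fat libraries. The macrophage marker sum was 2321 to 11660 CPM in high-fat libraries, against 2392 and 2005 CPM in the MSEW and control low-fat libraries, with a median log2 fold change of 1.45 over the 22 markers and 11 below an unadjusted 0.05. All 10 endothelial markers were negative (median −0.78). MSEW high-fat library 2 and control high-fat library 2 had sums of 2321 and 2418 CPM, close to the low-fat ones, and their V1 sums were 122 and 94.0, above both low-fat libraries. Within the list, single markers in these libraries went different ways: Trem2 had 39.8 and 22.7 CPM in MSEW and control high-fat library 2, against 3.62 and 3.44 CPM in the MSEW and control low-fat libraries, and Gpnmb had 388 and 188 CPM in the high-fat pair, against 99.9 and 106 CPM in the low-fat libraries. Mrc1 had 81.5 and 157 CPM in the high-fat pair, against 326 and 240 CPM in the low-fat libraries. These 3 markers of the 22 were named after their values were seen. The sum alone does not show macrophage content, and the part of macrophages in the diet difference was not tested. The Ctss levels of MSEW and control high-fat library 2, 118 and 106, were also above the low-fat levels. Their protease sums were 1177 and 1024, against 718 and 769 in the MSEW and control low-fat libraries. Without MSEW high-fat libraries 3 and 4, 17 of the 39 genes were below an unadjusted 0.05 and higher, against 7.08% of all genes, with a median of 0.43 and none passing. Without the MSEW low-fat library none was below an unadjusted 0.05 (1.44% of all genes were, and higher) and the median was 0.41. Without the control low-fat library 10 were, against 4.66% of all genes, and the median was 0.92.

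Cd68 had 132, 86.6, 419 and 448 CPM per kb in MSEW and 174, 58.8, 158 and 155 in control high-fat libraries, against 47.6 and 40.4 in the MSEW and control low-fat libraries (log2 fold change 2.09 ± 0.78, unadjusted p = 0.0263). Ctsd had 139 to 823 in high-fat libraries, against 88.2 and 90.7 in the MSEW and control low-fat libraries (1.78 ± 0.75, unadjusted p = 0.0422), and Lipa had 47.3 to 255 in high-fat libraries, against 32.6 and 31.3 in the MSEW and control low-fat ones (1.62 ± 0.73, unadjusted p = 0.0538). Neither overlapped. Lamp1 had 209 to 335 in high-fat libraries, against 190.3 and 213 in the MSEW and control low-fat ones (0.34 ± 0.24), and Lamp2 had 55.6 to 77.6 in high-fat libraries, against 58.4 and 68.8 in the MSEW and control low-fat ones (0.03 ± 0.15). Both overlapped. Atp6v0c had 22.4 to 37.2 in high-fat libraries, against 16.5 and 18.9 in the MSEW and control low-fat ones (0.65 ± 0.23, unadjusted p = 0.021). The transcription factors and the channel had low-fat levels inside the high-fat ranges given above, except for the MSEW low-fat library in Tfe3: Tfeb was 3.12 and 2.58, Tfe3 6.80 and 7.37, Mitf 11.2 and 12.8 and Mcoln1 5.71 and 5.62 in the MSEW and control low-fat libraries, with log2 fold changes from −0.06 (Mitf) to 0.37 (Tfeb). None of the genes in the further pathway lists passed in the early life, interaction or diet comparisons.

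The low-fat libraries themselves, MSEW against control, have no replicates and no test. None of the 39 genes differed by more than 2-fold, against 2.41% of 9480 genes that reached 10 CPM in at least 1 of the pair. The median log2 ratio was −0.08, against −0.09 over all genes, and 29 of 39 were negative. As the median over all genes was negative too, most of those genes were negative as well. Gla was farthest apart, with 15.9 CPM per kb in the MSEW and 30.8 in the control library (log2 ratio −0.95), and Ctsc was highest on the other side, with 33.6 in the MSEW and 24.97 in the control library (0.43).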

How the data were processed

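Members and lists were chosen with earlier results of these data known. The authors deposited raw read counts and FPKM values (fragments scaled to gene length and depth) per gene, with gene lengths. STAR 2.6.1d, DESeq2 1.20.0, edgeR 3.24.3 and the builds mm10 and GRCm38 are named per the submitters' processing notes. The sources used here state no counting program, strand setting or annotation release. Of the 39 genes, 17 overlap another gene of the table, 11 of them a coding one, and Cd63 and Atp6v0c have named pseudogenes, so their counts are less certain.

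Counts were filtered with filterByExpr, scaled by TMM factors and fitted in edgeR 4.0.16 under R 4.3.3 (robust quasi-likelihood F test, Benjamini-Hochberg at 0.05 over all genes tested), which every adjusted p rests on unless another tool is named. All 39 genes passed the filter in each fit. The fraction and diet fits had early life treatment as covariate, and the fraction fit used high-fat libraries only. The SE is the log2 fold change over the root of F. DESeq2 1.42.0 and limma 3.58.1 (on log2 of FPKM plus 0.1) were alternatives. Displayed levels are CPM with TMM factors over 16 libraries, divided by length. Low-fat libraries were compared as log2 ratios with a prior count of 2. The fits were also run on simulated counts, with the same scatter for every gene and only large fold changes. This gives no measure of the power for the smaller differences described here.

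Values in every library were given for Lamp1, Lamp2, Ctsd, Cd68, Lipa, Tfeb, Tfe3, Mitf, Mcoln1 and Atp6v0c, and in each comparison for the genes that passed with the 6 largest fold changes in each direction or, where none passed, the 4 with the smallest unadjusted p; of each pathway list, up to 3 passing genes in each direction were named. Other genes are named after their values were seen.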

Additional observations from a re-analysis of the deposited data

Results flagged for a closer look

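Gla in the MSEW high-fat preadipocyte libraries was picked out because 1 library lay far from the rest: its levels were 36.4, 35.5, 29.3 and 35.4 CPM per kb in libraries 1 to 4, and the gap between library 3 and its nearest neighbour was 0.85 of the whole range. Chance alone picks out about 1 in 20 groups by this rule. Library 3 was one of the pair with high macrophage marker sums, in which most other lysosomal genes were high and not low. No cause was tested.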

How the results depend on the processing

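In the fraction comparison, leaving out each library in turn gave 14 to 18 of the 39 genes passing, 9 to 12 of them higher and 5 to 6 lower. In the same fits 55.2 to 60.1% of all genes passed. Leaving out control preadipocyte library 1 or 3 kept its near copy in the fit. Without both of these 16 of the 39 passed, 11 higher and 5 lower (55.8% of all genes passed). MSEW libraries alone gave 9 (49.7% of all genes passed), of which 5 were higher. Control libraries alone gave 14 (36.8% of all genes passed), 11 higher and 3 lower. Chosen after seeing the data, the fit without MSEW preadipocyte libraries 3 and 4 gave 20 higher (25.1% of all genes higher). The fit without control mature adipocyte library 2 and MSEW mature adipocyte library 1, chosen likewise, gave 6 higher (23.2% of all genes higher). It lost Ctsb, Ctsz, Lamp1, Atp6v0a1, Atp6v1b2 and Atp6v1c1. The same sets of libraries were left out of the interaction, also after seeing the data. So were the mature pair in the early life comparison of mature adipocytes, and the preadipocyte pair in the early life comparison of preadipocytes and in the diet comparison. In each of these fits 0 of the 39 passed. In the diet comparison DESeq2 gave 3, all higher, where edgeR gave 0; the cause was not tested.

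Groups share replicate numbers in the labels, but same-numbered libraries did not deviate together in every pair (correlations of −0.0838 to 0.458 in preadipocytes and −0.366 to −0.00501 in mature adipocytes; own number best in 2 of 4 and 0 of 3), nor did they across fractions (−0.276 to 0.204; own number best in 2 of 3 for control and 1 of 3 for MSEW libraries), so the numbers were not taken to pair the samples. A replicate block gave 17 of the 39 genes in the fraction comparison (58.2% of all genes passed) and 0 in each of the others.

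Over single genes, 1001 fraction results under the alternatives kept their direction or side, 37 lost a call and 15 gained one; 3 gained one in the diet comparison, and no call changed sign. The early life comparisons gave 0 of the 39 genes under every alternative run. With 1 low-fat library an arm and 3 to 4 samples a group, moderate differences may go undetected.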

Other observations

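Some further subunits and regulators, chosen after their values were seen, stood apart by diet. Atp6v0d2, an isoform of the d subunit known from osteoclasts and macrophages, had 7.42 to 102 CPM per kb in high-fat preadipocytes, against 0.503 and 0.928 in the low-fat libraries, and 6.55 to 104 in high-fat mature adipocytes (high-fat over low-fat log2 fold change 5.5 ± 1.22, unadjusted p = 0.00155, edgeR adjusted p = 0.332). Acp5 had 11.3 to 39.9 in high-fat preadipocytes, against 2.41 and 3.06 in low-fat ones (2.81 ± 0.64, unadjusted p = 0.00176). The cystatin gene Cstb had 130 to 261 in high-fat preadipocytes, against 69.0 and 110 in low-fat ones (1.29 ± 0.28, unadjusted p = 0.00132), and Fnip2, a partner of folliculin, had 6.51 to 17.6 in high-fat preadipocytes, against 3.18 and 3.61 in low-fat ones (1.59 ± 0.37, unadjusted p = 0.00201). Among the macrophage markers Trem2, a receptor of lipid-associated macrophages, had 22.7 to 237 CPM in high-fat preadipocytes, against 3.62 and 3.44 CPM in the MSEW and control low-fat libraries (4.41 ± 1.04, unadjusted p = 0.00227). None of these passed the adjustment.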
